A study of Mus musculus with 10 samples.

Results

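The signaling lymphocytic activation molecule (SLAM) receptor family was examined in the uterus of early pregnant mice with and without *Arid1a* in the endometrial epithelium. The family consists here of 9 genes, *Slamf1*, *Slamf6*, *Slamf7*, *Slamf8*, *Slamf9*, *Cd84*, *Ly9*, *Cd48* and *Cd244a*, of the 45706 genes counted. They were chosen by name as a receptor family on chromosome 1, at a time when results of the genotype comparison in these same uteri were already known, so their differences between genotypes, and whether each was among the genes past the threshold used for all genes, are given as a description that supports no statement. RNA of 10 uteri was sequenced at gestation day (GD) 3.5, from 5 control Arid1a f/f mice (controls) and 5 Ltf iCre/+ Arid1a f/f mice, the conditional knockouts (cKO). All females were intact adults carrying *Arid1a* alleles flanked by loxP sites, in a mixed background of C57BL/6, 129S6/SvEvTac, 129P2/OlaHsd and 129S1/SvImJ, and had been mated with wildtype males. In cKO mice, Cre recombinase is driven by the lactoferrin gene (*Ltf*) and removes *Arid1a* from cells of the endometrial epithelium. Lactoferrin is also a product of neutrophils, and each library came from bulk uterine tissue, so leukocytes, stroma and muscle are part of every value. All 9 genes were among the 25146 that passed the filter on low counts (on average 1 count or more in each library). Expression is given in CPM, the count of a gene relative to the normalized size of its library.

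SLAM receptors are immunoglobulin superfamily proteins on the surface of leukocytes, and most of them bind a copy of themselves on a neighboring cell. The exception is the pair of *Cd48*, which encodes a lipid-anchored protein without a cytoplasmic tail, and *Cd244a*, which encodes its receptor 2B4 on NK and other cells. *Slamf1*, *Slamf6*, *Slamf7*, *Cd84*, *Ly9* and *Cd244a* carry tyrosine motifs in their tails that recruit the small adaptors SAP (*Sh2d1a*) or EAT-2 (*Sh2d1b1*), while *Slamf8* and *Slamf9* have short tails without these motifs and are known from myeloid cells. The SLAM interval is also known to differ in sequence and gene content between the C57BL/6 and 129 strains.

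All 9 genes lie within 1031.38 kb of chromosome 1 (GRCm38, GENCODE annotation). In order along the chromosome these are *Cd244a* (ENSMUSG00000004709, 171559193 to 171609746, plus strand), *Ly9* (ENSMUSG00000004707, 171588624 to 171607410, minus strand), *Slamf7* (ENSMUSG00000038179, 171632403 to 171653035, minus strand), *Cd48* (ENSMUSG00000015355, 171682009 to 171705258, plus strand) and *Slamf1* (ENSMUSG00000015316, 171767127 to 171801184, plus strand). They are followed by *Cd84* (ENSMUSG00000038147, 171839697 to 171890718, plus strand), *Slamf6* (ENSMUSG00000015314, 171917515 to 171953170, plus strand), *Slamf9* (ENSMUSG00000026548, 172475358 to 172478575, plus strand) and *Slamf8* (ENSMUSG00000053318, 172581758 to 172590568, minus strand). *Ly9* lies inside the gene model of *Cd244a* on the opposite strand, but no exon of *Ly9* overlaps one of *Cd244a*. Of the exon bases of *Slamf7*, 9.24% (423 of 4577) also belong to *Gm37787* on the opposite strand, and the other 8 genes share no exon base with another gene. Whether reads were counted by strand is not given in the sources used here.

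Start site windows were available for 8 of the 9 genes in RefSeq (GRCm38.p6), each of 300 bases from 250 before to 50 after the start, and for *Ly9* there was no entry. They were searched on both strands for AGGAAGT (bound by ETS factors such as PU.1), TGANTCA (bound by AP-1) and GAAANNGAAA (bound by interferon regulatory factors), where N is any base. TGANTCA was found in 4 of the 8 windows, those of *Cd244a*, *Slamf7*, *Cd84* and *Slamf8*, against 7.81% of all 32851 windows. AGGAAGT was found in 1 window, that of *Slamf9*, against 9.35% of all windows, and GAAANNGAAA in 1 window, that of *Slamf8*, against 3.44%. The *Slamf7* and *Slamf8* windows are printed because only these genes had values that did not overlap between genotypes, and that of *Slamf9* because it holds a different motif and belongs to the other short-tailed receptor. Sequences run 5′ to 3′ on the strand of the gene, and capitals mark the matches.
Slamf7, chr1:171648950-171649249, minus strand: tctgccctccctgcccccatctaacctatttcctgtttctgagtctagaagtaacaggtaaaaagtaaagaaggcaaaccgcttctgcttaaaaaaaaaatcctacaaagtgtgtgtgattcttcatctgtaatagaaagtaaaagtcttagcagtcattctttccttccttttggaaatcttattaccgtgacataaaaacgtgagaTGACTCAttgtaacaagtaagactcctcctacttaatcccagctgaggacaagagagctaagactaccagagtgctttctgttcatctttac
Slamf8, chr1:172590519-172590818, minus strand: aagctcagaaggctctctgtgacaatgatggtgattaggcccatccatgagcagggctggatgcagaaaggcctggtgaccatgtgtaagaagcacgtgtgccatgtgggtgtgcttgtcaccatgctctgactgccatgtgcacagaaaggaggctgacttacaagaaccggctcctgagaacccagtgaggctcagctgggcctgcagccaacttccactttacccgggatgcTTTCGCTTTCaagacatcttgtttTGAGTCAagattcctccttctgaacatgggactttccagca
Slamf9, chr1:172475110-172475409, plus strand: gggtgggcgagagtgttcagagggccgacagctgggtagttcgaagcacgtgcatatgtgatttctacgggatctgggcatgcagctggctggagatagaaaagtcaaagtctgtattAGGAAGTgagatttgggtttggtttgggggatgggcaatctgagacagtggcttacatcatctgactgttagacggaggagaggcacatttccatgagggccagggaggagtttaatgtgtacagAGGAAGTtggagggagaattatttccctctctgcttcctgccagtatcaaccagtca
In *Slamf8*, an interferon regulatory factor match of reverse orientation (bases 236 to 245 of the window) is followed closely by the AP-1 match (bases 260 to 266). The AP-1 match of *Slamf7* covers bases 209 to 215, and the ETS matches of *Slamf9* cover bases 119 to 125 and 244 to 250. The *Slamf7* window lies at the RefSeq start, inside the GENCODE gene model given above. The 5′ end of that model, at 171653035, was not searched. These matches describe the letters of the reference genome, and no binding was measured.

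Mean expression of every SLAM family gene was higher in cKO uteri than in controls, with log2 fold changes from 0.23 for *Slamf6* to 1.53 for *Slamf8* and a median of 0.88. The median over all 25146 tested genes was 0.03, and 52.7% of them were higher. The threshold was an adjusted p below 0.05 (edgeR quasi-likelihood test, Benjamini-Hochberg over all tested genes). It was passed upward by 5 of the 9 (*Slamf8*, *Slamf1*, *Slamf7*, *Cd84* and *Cd48*) and downward by 0. Among all tested genes it was passed upward by 5.19% and downward by 4.51%. For 2 of the 9, *Slamf7* and *Slamf8*, all 5 cKO uteri lay above every control, as was the case for 5.53% of all tested genes. Because the genes were chosen with this comparison known, nothing is read from these counts. Summed over the 9 genes, mean expression was 50.6 ± 9.57 CPM in controls and 96.0 ± 34.8 CPM in cKO uteri (SD, n = 5 each). In uterine tissue, more cells that express a gene and more RNA of it per cell cannot be told apart.

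**Figure D1:**
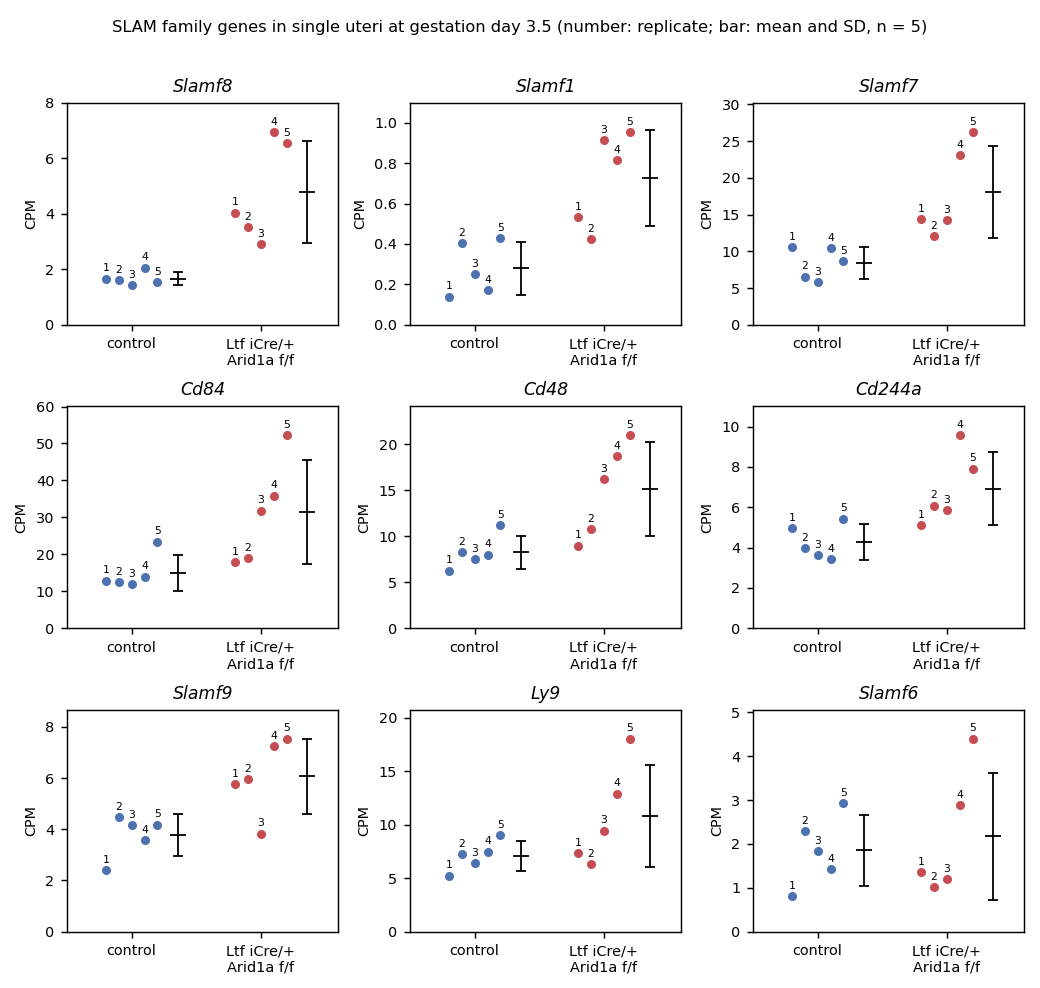
Expression (CPM, linear axes from 0) of the 9 SLAM family genes in each of 5 control (blue) and 5 cKO (red) uteri, with the replicate number over each point and the mean and SD as a black bar. *Slamf8* and *Slamf7* are the genes without overlap between genotypes, and replicate 5 holds the highest cKO value for 7 of the 9 genes.

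The 5 cKO uteri were not alike. Replicate 5 held the highest of all 10 values for 7 of the 9 genes and replicate 4 for the other 2 (*Slamf8* and *Cd244a*), and the lowest cKO value belonged to replicate 1 or 2 for 7 genes. The family sum was 65.5, 65.1, 86.5, 118 and 145 CPM in replicates 1 to 5. Among controls, replicate 5 was highest for 6 of the 9 genes and had the highest family sum (66.9 CPM, against a lowest sum of 43.0 CPM). Replicate 5 of the cKO group also stood apart in the summed expression of 6 neutrophil genes, which was 765 CPM there and at most 16.6 CPM in the other 9 uteri. Most of this sum was *S100a9* (383 CPM) and *S100a8* (290 CPM). Without this uterus, 2 of the 9 genes, *Slamf7* and *Slamf8*, passed the threshold. The count was also lower than 5 without control replicate 2 or 3 (1 gene, *Slamf8*), without control replicate 1 or 4 or cKO replicate 4 (2 genes each), and without cKO replicate 3 (3 genes). Over all tested genes, 2438 passed with all 10 uteri and 2293 without cKO replicate 5. The count over all genes was 1204 and 1248 without control replicate 2 and 3, and 1925 and 1414 without control replicate 1 and 4. It was 2291 and 1850 without cKO replicate 3 and 4.

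The receptors with the largest differences included both genes without overlap. *Slamf8*, a myeloid receptor known to restrain the oxidative burst of phagocytes, had 1.66, 1.62, 1.43, 2.06 and 1.55 CPM in control replicates 1 to 5 and 4.05, 3.52, 2.91, 6.96 and 6.55 CPM in cKO replicates 1 to 5. Controls were tightly grouped, and even the lowest cKO uterus, replicate 3, lay above all of them. The mean was 1.66 ± 0.239 CPM in controls and 4.80 ± 1.84 CPM in cKO uteri (SD, n = 5 each), a difference of 1.53 on the log2 scale (standard error 0.26). *Slamf8* was the only gene of the family past the threshold whichever of the 10 uteri was left out, with log2 fold changes of 1.35 to 1.66.

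*Slamf7*, which encodes CRACC, a receptor of NK cells, plasma cells and activated macrophages, had 10.6, 6.58, 5.81, 10.4 and 8.69 CPM in controls and 14.4, 12.1, 14.3, 23.2 and 26.3 CPM in cKO uteri. The genotypes did not overlap, and cKO replicates 4 and 5 stood well above the other 3. On the log2 scale the difference was 1.10 (standard error 0.25), from 8.41 ± 2.17 to 18.0 ± 6.26 CPM (SD, n = 5 each). It lay between 0.93 and 1.21 with each uterus left out and was past the threshold in 8 of these 10 fits, all but those without control replicate 2 or 3.

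The self-binding receptors known to use SAP were less uniform. *Cd84*, which is found on B cells, T cells, platelets and macrophages, had 12.9, 12.4, 12.0, 14.0 and 23.5 CPM in controls and 18.0, 18.9, 31.8, 35.9 and 52.2 CPM in cKO uteri. Control replicate 5 lay above cKO replicates 1 and 2, while the other 4 controls lay below all cKO uteri. Mean *Cd84* was 15.0 ± 4.81 CPM in controls and 31.4 ± 14.1 CPM in cKO uteri (SD, n = 5 each). Its log2 fold change of 1.07 (standard error 0.30) was 0.80 and not past the threshold without cKO replicate 5.

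*Slamf1*, the gene of CD150 on activated lymphocytes and dendritic cells, had the fewest counts. They were 10, 29, 16, 12 and 30 in control libraries and 34, 25, 56, 56 and 66 in cKO libraries, or 0.279 ± 0.133 and 0.728 ± 0.237 CPM (SD, n = 5 each). In CPM, 4 of the 5 cKO uteri lay above every control and replicate 2, with 0.422 CPM, lay just below the highest control at 0.431 CPM. Its log2 fold change of 1.38 had a standard error of 0.38, and without cKO replicate 5 it was 1.26 and not past the threshold.

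*Ly9*, whose product CD229 is found on T and B cells, had 5.24, 7.23, 6.39, 7.48 and 9.04 CPM in controls and 7.32, 6.34, 9.45, 12.9 and 18.0 CPM in cKO uteri. Replicates 3, 4 and 5 of cKO lay above every control, whereas replicates 1 and 2 lay within the controls. From 7.08 ± 1.40 to 10.8 ± 4.76 CPM (SD, n = 5 each), the *Ly9* difference of 0.61 (log2, standard error 0.27) was not past the threshold, and it was 0.35 without cKO replicate 5.

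*Slamf6*, which encodes Ly108 on T, B and NK cells, had 0.811, 2.30, 1.83, 1.42 and 2.93 CPM in controls and 1.36, 1.01, 1.19, 2.89 and 4.40 CPM in cKO uteri. Only cKO replicate 5 lay above every control, while replicates 1, 2 and 3 each lay below 4 of the 5 controls. With means of 1.86 ± 0.811 and 2.17 ± 1.45 CPM (SD, n = 5 each), its log2 fold change of 0.23 was smaller than its standard error of 0.45 and was -0.20 without cKO replicate 5.

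Both genes of the ligand and receptor pair were higher, one of them past the threshold. *Cd48*, the ligand carried by nearly all leukocytes, had 6.27, 8.29, 7.47, 8.01 and 11.2 CPM in controls and 8.99, 10.8, 16.2, 18.7 and 21.0 CPM in cKO uteri. As with *Cd84*, control replicate 5 lay above cKO replicates 1 and 2 and below the other 3. Mean *Cd48* was 8.25 ± 1.82 and 15.1 ± 5.11 CPM (SD, n = 5 each), which is 0.88 higher on the log2 scale (standard error 0.24), and 0.73, not past the threshold, without cKO replicate 5.

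*Cd244a*, the receptor of CD48, had 4.97, 3.96, 3.62, 3.42 and 5.44 CPM in controls and 5.13, 6.08, 5.87, 9.57 and 7.91 CPM in cKO uteri. All cKO uteri but replicate 1 lay above the highest control. From 4.28 ± 0.879 to 6.91 ± 1.81 CPM (SD, n = 5 each), its log2 fold change of 0.69 (standard error 0.21) was not past the threshold in edgeR's test but was with DESeq2. The same held for *Slamf9*, the other short-tailed receptor, which had 2.42, 4.47, 4.17, 3.56 and 4.18 CPM in controls and 5.75, 5.95, 3.83, 7.25 and 7.54 CPM in cKO uteri. For *Slamf9*, cKO replicate 3 lay within the controls and the other 4 above them, with means of 3.76 ± 0.819 and 6.06 ± 1.47 CPM (SD, n = 5 each) and a fold change of 0.69 (log2, standard error 0.23).

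**Figure D2:**
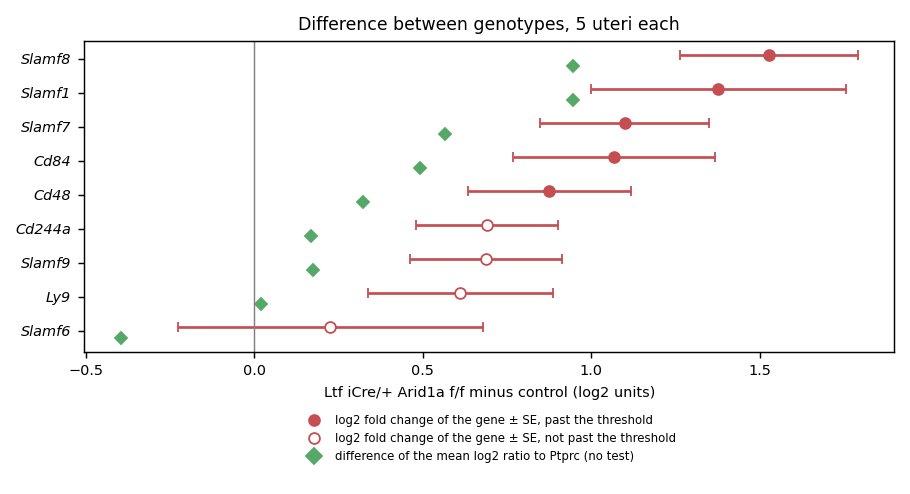
Difference between cKO and control uteri (5 each) for each SLAM family gene in log2 units, as the fold change with its standard error (circles, filled where past the threshold) and as the difference of the mean log2 ratio to *Ptprc* (diamonds, no test). Fold changes run from 0.23 to 1.53, and relative to *Ptprc* the differences run from -0.40 for *Slamf6* to 0.95 for *Slamf8* and *Slamf1*.

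To compare levels between genes, CPM were divided by the exon length of each gene. This length covers the exons of all annotated transcripts, from 1189 bases for *Cd48* to 10832 for *Slamf6*, and the order depends on it. In CPM, mean control expression was higher for *Slamf6* (1.86) than for *Slamf8* (1.66). In controls, *Cd48* was highest at 6.94 ± 1.53 CPM per kb (SD, n = 5), and it was above the next gene in 5 of 5 uteri. *Slamf9* (2.86 ± 0.624), *Cd84* (2.39 ± 0.767), *Ly9* (2.14 ± 0.425) and *Slamf7* (1.84 ± 0.475 CPM per kb) followed, and neighbors among these 4 changed places from uterus to uterus. *Cd244a* (0.878 ± 0.180), *Slamf8* (0.540 ± 0.0775), *Slamf6* (0.172 ± 0.0749) and *Slamf1* (0.0454 ± 0.0216 CPM per kb) were lower in this order in 5 of 5 controls. In cKO uteri, *Cd48* was again highest at 12.7 ± 4.30 CPM per kb (SD, n = 5), followed by *Cd84* at 5.00 ± 2.24, *Slamf9* at 4.62 ± 1.12, *Slamf7* at 3.94 ± 1.37 and *Ly9* at 3.27 ± 1.44 CPM per kb. *Slamf7* was above *Ly9* in 5 of 5 cKO uteri and in 2 of 5 controls, and the mean of *Slamf8* (1.56 ± 0.597 CPM per kb) exceeded that of *Cd244a* (1.42 ± 0.370 CPM per kb), although only 3 of the 5 uteri had this order.

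Expression was next set against *Ptprc*, the gene of the leukocyte surface protein CD45. *Ptprc* had 59.7, 65.5, 67.9, 69.8 and 98.7 CPM in controls and 68.3, 70.7, 105, 135 and 155 CPM in cKO uteri, and the uterus with the highest SLAM family sum of each genotype, replicate 5, was also highest in *Ptprc*. The log2 fold change of *Ptprc* was 0.56 (standard error 0.23, adjusted p = 0.149 by edgeR). This was the smallest log2 fold change of the 6 pan-leukocyte genes given below, whose median was 0.79 and whose largest was 1.03 (*Itgb2*). The size of a difference in ratio therefore depends on the marker chosen, and other markers were not used. As a log2 ratio to *Ptprc*, 8 of the 9 genes were higher in cKO uteri, with a median difference of 0.32. For *Cd48* the ratio lay between -3.25 and -2.98 in controls and between -2.93 and -2.69 in cKO uteri. For *Cd84* it lay between -2.50 and -2.07 in controls and between -1.93 and -1.57 in cKO uteri. These were the genes whose ratios did not overlap, with differences of 0.32 and 0.49. The share of all tested genes without overlap in this ratio was not computed. The ratio of *Slamf8* differed by 0.95, with 4 of 5 cKO uteri above every control, that of *Slamf1* by 0.95 with 2 of 5, and that of *Slamf7* by 0.57 with 1 of 5. *Cd244a* and *Slamf9* differed by 0.17 each, *Ly9* by 0.02 and *Slamf6* by -0.40.

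Within genotypes, the genes followed *Ptprc* to different degrees. Log2 CPM of each gene and of *Ptprc* were compared over the 10 uteri after subtracting the mean of each genotype, a comparison that does not use the genotype difference and was chosen after the values had been seen. For the rank correlation rho, these values were ranked over the 10 uteri and the mean rank of each genotype was subtracted before correlation. Two-sided exact permutation over all 14400 arrangements within genotypes gave the p-values of the 9 relations. Each pair of values shares its library and the leukocyte content of the tissue. The closest relations were those of *Cd48*, *Cd84* and *Ly9*. For *Cd48*, Pearson r was 0.97 (exact permutation p = 0.000278) and rho 0.96 (exact permutation p = 0.00160). For *Cd84*, r was 0.97 (exact permutation p = 0.00139) and rho 0.95 (exact permutation p = 0.00243). For *Ly9*, r was 0.95 (exact permutation p = 0.000903) and rho 0.94 (exact permutation p = 0.00118). Without the uteri farthest from the median of *Ptprc*, replicate 5 of each genotype, r was 0.95, 0.95 and 0.92 for these 3 genes. For *Slamf6* (r = 0.83, exact permutation p = 0.0167, rho = 0.76, exact permutation p = 0.0283) and *Slamf1* (r = 0.71, exact permutation p = 0.0198, rho = 0.66, exact permutation p = 0.0261), r was 0.64 and 0.57 without those uteri. With Benjamini-Hochberg adjustment over the 9 relations, exact permutation p was at most 0.00417 (r) and 0.00729 (rho) for *Cd48*, *Cd84* and *Ly9*, and 0.0356 (r) and 0.0509 (rho) for both *Slamf6* and *Slamf1*. It was at least 0.0858 (r) and 0.216 (rho) for the 4 genes that follow. For the other 4 genes, r was 0.71 for *Cd244a* (exact permutation p = 0.0572), 0.64 for *Slamf7* (exact permutation p = 0.0936), 0.57 for *Slamf8* (exact permutation p = 0.230) and 0.41 for *Slamf9* (exact permutation p = 0.295). Their rho was 0.52 (exact permutation p = 0.168), 0.56 (exact permutation p = 0.154), 0.44 (exact permutation p = 0.319) and 0.48 (exact permutation p = 0.241). Without the same uteri, their r was 0.59, 0.50, 0.53 and 0.18.

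**Figure D3:**
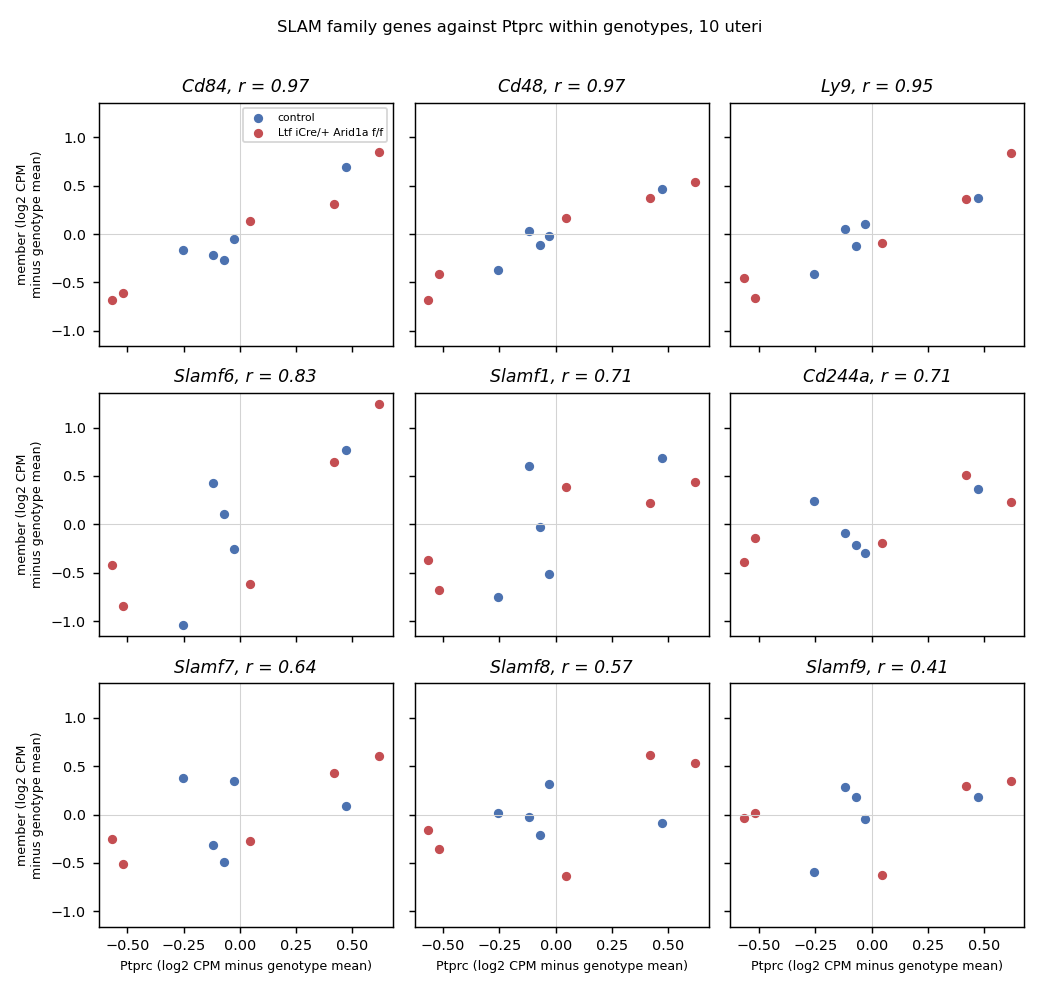
Log2 CPM of each SLAM family gene (vertical) against *Ptprc* (horizontal), each minus its genotype mean, in 5 control (blue) and 5 cKO (red) uteri. Points lie close to a line for *Cd84*, *Cd48* and *Ly9* (r of 0.95 to 0.97) and scatter for *Slamf9* (r = 0.41).

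Among themselves, the 9 genes gave 36 pairs, and all 36 correlations within genotypes were positive, with a median r of 0.62 and a range of 0.06 to 0.94 over the 10 uteri. They are given as a description, since all pairs share the same libraries. Without cKO replicate 5 the median was 0.50. *Cd48* and *Cd84* (0.94), *Ly9* and *Cd48* (0.92), *Ly9* and *Cd84* (0.91) and *Ly9* and *Slamf6* (0.91) were the closest pairs. *Slamf7* went with *Slamf8* (0.82), although these genes lie far apart in the interval, and *Slamf6* with *Slamf9* (0.81). The weakest relations were between *Slamf7* and *Slamf1* (0.06), *Slamf7* and *Slamf9* (0.09) and *Slamf1* and *Slamf8* (0.10). Median r with the other 8 genes was highest for *Slamf6* (0.76) and lowest for *Slamf9* (0.42).

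For each gene, the 3 genes outside the family with the most similar pattern were taken by Pearson correlation over the 10 uteri after subtraction of genotype means. The search covered the 15810 genes with 50 or more counts per library on average. With so many genes and only 10 uteri, the best matches are high even among unrelated genes. No chance level was computed, and no relation is read from these matches. *Cd48* was closest to *Snx10* (0.98), *Lpxn* (0.98) and *Slc9a9* (0.97), and *Cd84* to *Ptprc* itself, *Gm10509* and *Snx10* (0.97 each). *Ly9* was closest to *Ms4a4c*, *Laptm5* and *Trim63* (0.97 each), of which *Laptm5* encodes a lysosomal protein of leukocytes. *Slamf6* was closest to *Milr1* (0.98), *Pld4* (0.97) and *Tlr9* (0.97), an endosomal sensor of DNA. For *Cd244a* these were *Idnk* (0.92), *Itgax* (0.91), which encodes CD11c, and *Gm20257* (0.91). *Slamf7* had *Ifi208* (0.96), *Cyb561d1* (0.95) and *Cdkl3* (0.94), and *Slamf1* had *Gm28529* (0.92), *Sash3* (0.92) and *Hsd11b1* (0.91). For the short-tailed receptors they were *Gm12185* (0.94), *Aatk* (0.92) and *Rubcnl* (0.90) with *Slamf8*, and *Ccl12* (0.94), a chemokine, *Sirpb1a* (0.94) and *4921531C22Rik* (0.92) with *Slamf9*.

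The adaptors of the receptors did not pass the threshold. *Sh2d1a*, the gene of SAP, had 0.873 ± 0.423 CPM in controls and 0.845 ± 0.471 CPM in cKO uteri (log2 fold change -0.05, standard error 0.44, adjusted p = 0.965 by edgeR). *Sh2d1b1*, the gene of EAT-2, had 1.69 ± 0.617 and 2.30 ± 0.808 CPM (log2 fold change 0.45, adjusted p = 0.399), and its copy *Sh2d1b2*, which can share reads with it, had 0.234 ± 0.108 and 0.282 ± 0.215 CPM (0.27, adjusted p = 0.831; SD, n = 5 each). *Cd2*, a related receptor that also binds CD48, had 2.65 ± 0.852 and 3.35 ± 1.31 CPM (0.34, adjusted p = 0.530).

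A list of 24 signaling partners was drawn up from general knowledge, but with earlier results of these data known. Of these, 18 were higher in cKO uteri with a median log2 fold change of 0.36, and 3 rose and 1 fell past the threshold. Among all tested genes, 52.7% were higher, 5.19% rose and 4.51% fell past it, and 5.53% had all 5 cKO uteri above every control. The partner values are given as a description. *Vav1*, an exchange factor downstream of SAP and Fyn, rose from 9.75 ± 1.61 to 16.2 ± 5.24 CPM (SD, n = 5 each; log2 fold change 0.73, adjusted p = 0.0489 by edgeR), with all 5 cKO uteri above every control. *Fyb*, an adaptor of T cell and myeloid signaling, rose by 0.66 (adjusted p = 0.0364), and *Itgb2*, the beta chain of leukocyte integrins, by 1.03 (adjusted p = 0.0404), each with 4 of 5 uteri above every control. *Becn1*, an autophagy protein that binds the tail of SLAMF1, fell by 0.25 on the log2 scale, from 167 ± 5.87 to 141 ± 6.33 CPM (SD, n = 5 each; adjusted p = 0.0361), with all 5 uteri below every control. None of the 4 passed without any 1 of control replicates 1 to 4 or without cKO replicate 4 or 5.

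Several lists of leukocyte markers were also higher. For comparison, 52.7% of all tested genes were higher and 5.19% rose past the threshold. The 6 pan-leukocyte genes, of which *Itgb2* is also a listed partner, were all higher and 4 passed the threshold, with sums of 167 to 266 CPM in controls and 218 to 507 CPM in cKO uteri. All 10 T cell genes were higher and 6 rose past the threshold (16.9 to 20.5 against 32.0 to 90.7 CPM). All 7 B cell genes reported were higher and 1, *Blk*, passed (9.95 to 19.6 against 10.04 to 43.4 CPM). Mean *Blk* was 1.74 CPM in controls and 9.28 CPM in cKO uteri. Log2 fold changes of the other reported B cell genes ran from 0.05 (*Cd79a*) to 1.17 (*Cd79b*). Of 10 NK cell genes, 4 were higher and 0 passed (53.2 to 111 against 38.0 to 124 CPM). In myeloid lists, 8 of 10 macrophage genes were higher and 0 passed (203 to 382 against 320 to 743 CPM). Of the monocyte genes, 5 of 6 were higher and 2, *Hp* and *Chil3*, passed (297 to 553 against 261 to 894 CPM). *Chil3* had a median of 0.334 CPM in cKO uteri and a highest value of 8.48 CPM. *Ly6c2* (log2 fold change 0.08), *Plac8* (0.20) and *Ccr2* (0.72) did not pass, and *F13a1* was lower (-0.54). Of the neutrophil genes, 5 of 6 were higher and 1 passed (2.00 to 16.6 against 7.68 to 765 CPM). Only cKO replicate 5 had a neutrophil sum above every control. For the macrophage and monocyte sums, only cKO replicates 4 and 5 did. Of 8 dendritic cell genes 6 were higher and 1, *Zbtb46*, fell past the threshold (58.5 to 65.9 against 60.7 to 106 CPM). All 5 mast cell genes were higher and 0 passed (3.49 to 19.0 against 5.58 to 37.9 CPM), while 1 of 3 tested eosinophil genes was higher (1.43 to 10.3 against 4.25 to 7.19 CPM) and *Epx* had at most 3 counts in any library. The T cell sum was above every control in all 5 cKO uteri, and so was the sum of the 5 epithelial genes given below. The part of leukocyte numbers in the SLAM family differences was not tested.

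Tissue markers differed too. Of 5 epithelial genes 4 were higher and 3 rose past the threshold (sums of 610 to 819 CPM in controls and 867 to 1563 CPM in cKO uteri), 1 of 5 stromal genes was higher (1733 to 1988 against 953 to 1631 CPM), and 0 of 5 myometrial genes were (4976 to 9235 against 2509 to 7186 CPM). Their part in the SLAM family values was not tested either. *Arid1a*, which Cre deletes in the epithelium, had 213 ± 22.9 CPM in controls and 185 ± 15.9 CPM in cKO uteri (SD, n = 5 each; log2 fold change -0.20, adjusted p = 0.201 by edgeR), and *Ltf*, whose locus carries the Cre, had 4.75 ± 3.92 and 714 ± 1194 CPM (7.23, adjusted p = 0.00920). Library totals were 59296537 to 72702411 counts.

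The other genes of the interval were examined because the family shares 1 chromosomal region. Between 171059193 and 173090568 of chromosome 1, which is the span of the family and 500 kb on either side, 47 other protein-coding genes were tested, 24 of them higher in cKO uteri, with a median log2 fold change of 0.02. Past the threshold, 4 rose and 2 fell, as did 5.19% and 4.51% of all tested genes. *Igsf9*, an adhesion gene beside *Slamf9*, rose from 7.46 ± 1.39 to 28.6 ± 8.85 CPM (log2 fold change 1.94, adjusted p = 0.000828 by edgeR), and *Nectin4*, an epithelial adhesion gene, from 7.08 ± 0.983 to 20.8 ± 5.54 CPM (1.55, adjusted p = 0.00104; SD, n = 5 each). *Fcgr3*, a receptor for antibodies on myeloid and NK cells, rose by 1.40 (adjusted p = 0.0411), and *Gm10521*, a low-level gene model between *Cd84* and *Slamf6*, by 2.31 (adjusted p = 0.0139). *Casq1*, a calcium-binding protein of muscle, fell from 3.83 ± 0.634 to 1.72 ± 0.453 CPM (log2 fold change -1.15, adjusted p = 0.0100; SD, n = 5 each). Genotypes did not overlap for any of these 5 genes, nor for *Tomm40l* and *Pigm*, which did not pass the threshold. Of all tested genes, 5.53% had all 5 cKO uteri above every control, and the share with all below is not given here.

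**Figure D4:**
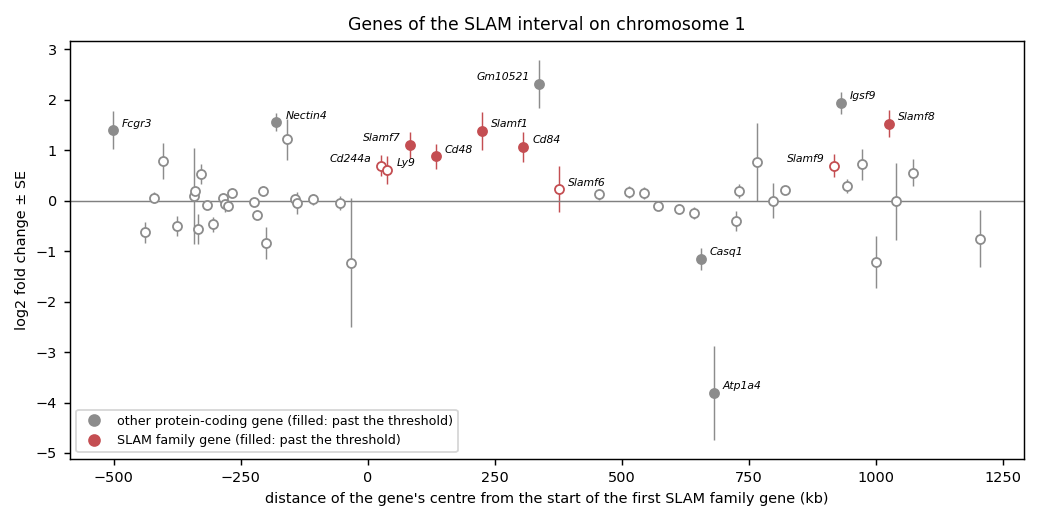
Log2 fold change with standard error (cKO against control, 5 uteri each) of the SLAM family (red) and other protein-coding genes (grey) against the distance of the gene's center from the start of the first family gene, in kb. Filled points passed the threshold: 5 of the 9 family genes, which were chosen with this comparison known, and 6 of the 47 others. Of all tested genes, 5.19% rose and 4.51% fell past it.

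Some genes of the interval varied strongly between single uteri, and they are named after their values had been seen. *Atp1a4*, a sodium pump subunit, fell past the threshold (log2 fold change -3.80, adjusted p = 0.0271 by edgeR) with counts of 2, 64, 31, 22 and 68 in controls and 0, 0, 4, 6 and 2 in cKO libraries. *Itln1*, next to *Cd244a*, had 0, 106, 79, 37 and 82 counts in controls and 4, 0, 1, 3 and 120 counts in cKO libraries, so each genotype held both low and high uteri. *Tma7-ps*, a pseudogene between *Cd48* and *Slamf1*, had 3, 9, 6, 14 and 10 counts in controls and 107, 107, 22, 15 and 19 in cKO libraries. Which strain's copy of the interval each mouse carried is not given in the sources used here, and its part in the SLAM family values was not tested.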

How the data were processed

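Uterine RNA of 5 control Arid1a f/f and 5 Ltf iCre/+ Arid1a f/f mice was sequenced as paired end mRNA libraries. Per the labels, the authors trimmed reads with cutadapt 1.18 and Trim Galore 0.6.4, checked them with FastQC 0.11.9 and aligned them to GRCm38 with STAR 2.7.3a, whose gene counting mode gave the counts they deposited, without normalization or filter. The strand setting and the annotation release are not given in the sources used here. Gene names and positions were taken from a GENCODE annotation, which held 45143 of the 45706 identifiers.

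The members and lists were chosen with earlier results of these data known. After removal of genes averaging below 1 count in each library, 25146 genes (99.997% of counts) were tested for genotype with the quasi-likelihood test of edgeR 4.0.16 in R 4.3.3. Library sizes were normalized by TMM, p-values adjusted by Benjamini-Hochberg over all tested genes and the threshold set at 0.05. The CPM values use TMM library sizes, and log2 CPM a prior count of 2. Standard errors are the absolute log2 fold change divided by the square root of the F statistic of the edgeR test. They are therefore no estimate separate from that test. The study used DESeq2, which served here (1.42.0) as an alternative test. Counts of any pair of replicates differed well beyond sampling noise (lowest chi-square per gene 33.3), and whether mice shared a litter is not labelled.

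Named genes were the 9 members, *Arid1a* and *Ltf*, partners and neighbors past the threshold (up to 10 of each), the adaptors and *Cd2*, and for each member the 3 most similar genes. Alternatives were relative log expression size factors, DESeq2, filtering low counts differently, a block for the replicate number, the regularized logarithm and leaving out each uterus in turn. The other measurements of the study were not analysed here. For 1 gene of the B cell list no result is reported here, and the list is given without it. Correlations were computed with Python 3.11.15 and scipy 1.17.1, and drawings with matplotlib 3.10.9.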

Additional observations from a re-analysis of the deposited data

Results flagged for a closer look

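Control replicate 5 had 23.5 CPM of *Cd84*, while the next highest of the 5 controls had 14.0 CPM. The gap was 0.827 of the range of the control values, above the limit of 0.71 of Dixon's test for 5 samples. This was 1 of 18 groups of 5 examined, and chance gives about 1 in 20. The same uterus had the highest *Ptprc* of the controls (98.7 CPM).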

How the results depend on the processing

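The number of SLAM family genes past the threshold, 5 with edgeR, was 7 with DESeq2, which added *Cd244a* and *Slamf9*, and 5 with relative log expression size factors, with edgeR's own filter or without a filter. It lay between 1 and 6 with each uterus left out: 1 without control replicate 2 or 3, 2 without control replicate 1 or 4 or without cKO replicate 4 or 5, 3 without cKO replicate 3, 5 without control replicate 5 or cKO replicate 2, and 6 without cKO replicate 1. *Cd48*, *Slamf1* and *Cd84* were each past the threshold in 3 of these 10 fits. The direction turned for *Slamf6* alone, whose log2 fold change lay between -0.20 (without cKO replicate 5) and 0.45 with each uterus left out. Over all genes the count was 4103 with DESeq2 against 2438, and between 1204 (without control replicate 2) and 2381 with each uterus left out. For the partners the count of 4 was 2 without a filter and 0 to 4 with each uterus left out, and for the neighbors the count of 6 was 12 with DESeq2 and 4 to 8 with each uterus left out. The cause was not tested. Replicate numbers occur in both genotypes, but deviations of uteri with the same number correlated over 0.1 for only 1 of the 5 pairs (-0.05 to 0.13), so they were not taken as pairs. *Ptprc*, however, rose steadily from replicate 1 to 5 in controls (59.7 to 98.7 CPM) and in cKO uteri (68.3 to 155 CPM). Whether leukocyte genes share an order by replicate number was not tested. With the replicate number as a block, 4 SLAM family genes (all but *Slamf1* of the 5), 2 partners and 1704 genes in all passed. *Slamf1* rests on 10 to 66 counts per library.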
